A study of Mus musculus with 6 samples.

Results

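Alcohol dehydrogenases and aldehyde dehydrogenases were examined in whole back skin of newborn mice, as 10 genes chosen by name (Adh1, Adh5, Adh7, Aldh1a1, Aldh1a3, Aldh1a7, Aldh2, Aldh3a1, Aldh3a2 and Aldh9a1) out of 18193 genes on the array. All probe sets whose platform annotation carries 1 of these symbols were taken, which gave 19 of 45037 probe sets, and no probe set annotated to several genes held a member. Skin came from 3 K5cre-caNrf2 mice (tg/tg), in which Cre under the keratin 5 promoter switches on a constitutively active Nrf2 in basal keratinocytes and their progeny, and from 3 K5cre-wt mice (tg/wt), which carry the Cre driver without active Nrf2. All 6 were female, of 1 litter, of mixed FVB/N and C57BL/6 background and taken at postnatal day 2.5, and each gave its own array, so n = 3 counts animals. The genotype cell of the transgenic samples reads tg/g and the treatment cell of the controls also names the transgene, so groups follow the sample titles. These titles read transgene strong or wildtype strong, each followed by a number. P-values measure the spread among 3 littermates of each genotype.

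Many of these enzymes work in sequence. Alcohol dehydrogenases use NAD to oxidise alcohols, among them ethanol and retinol, to aldehydes, and aldehyde dehydrogenases oxidise reactive aldehydes to carboxylic acids. In skin, the same pair of steps makes retinoic acid from retinol, which regulates keratinocyte differentiation, and clears the aldehydes that lipid peroxidation, fatty alcohols and sphingolipids give off. Nrf2 is a transcription factor that binds antioxidant response elements and switches on many detoxification genes.

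Shown are stretches of DNA around start sites of the member with the largest change and of a neighbouring pair, of which 1 was called. They come from RefSeq on build GRCm38.p6, in which 7 of the 10 members had an entry, with 9 start regions in all. Each start region runs from 250 bases before the annotated start to 50 bases after it, and is written 5′ to 3′ along the gene. For Adh7 the region is chr3:138217523-138217822 on the plus strand, with capitals marking a match to TGANTCA, the AP-1 motif.
Adh7: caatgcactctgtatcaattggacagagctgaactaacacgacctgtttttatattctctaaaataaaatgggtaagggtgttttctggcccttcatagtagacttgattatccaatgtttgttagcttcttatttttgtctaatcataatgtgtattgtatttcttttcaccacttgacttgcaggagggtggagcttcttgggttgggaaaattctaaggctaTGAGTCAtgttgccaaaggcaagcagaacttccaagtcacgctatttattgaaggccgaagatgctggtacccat
For the Aldh1a pair the stretch runs from 100 bases before to 50 bases after the start, at chr19:20601868-20602017 on the plus strand for Aldh1a1, whose other annotated start lies further upstream, and at chr19:20727507-20727656 on the minus strand for Aldh1a7. Capitals mark the bases that differ.
Aldh1a1: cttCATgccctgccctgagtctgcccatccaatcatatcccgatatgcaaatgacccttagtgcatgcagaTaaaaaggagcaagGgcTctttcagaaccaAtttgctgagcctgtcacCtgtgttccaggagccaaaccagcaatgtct
Aldh1a7: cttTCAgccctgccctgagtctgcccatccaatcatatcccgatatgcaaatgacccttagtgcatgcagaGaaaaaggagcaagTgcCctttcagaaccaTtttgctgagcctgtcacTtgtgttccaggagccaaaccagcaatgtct

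Set side by side without gaps, the Aldh1a1 and Aldh1a7 stretches had 142 of 150 identical bases (94.7%), with 8 differences and a longest identical run of 65 bases. Bases further upstream and the other Aldh1a1 start were not compared. The core of the antioxidant response element was searched as TGACNNNGC on both strands. It was found in 1 of the 9 member regions, that of Aldh9a1, 87 bases before the start, and in 12.4% of 32851 mouse start regions of the same length. TGANTCA, which overlaps many such elements, was found in 2 of the 9 regions, 25 bases before the start of Adh7 and 57 bases before the upstream start of Aldh1a1, and in 7.81% of all regions. A match describes these letters in this window only.

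In caNrf2 skin 3 of the 10 genes rose, Adh7, Aldh3a1 and Aldh1a7, and 1 fell, Aldh1a3, in limma with Benjamini-Hochberg adjustment over 18193 genes and a threshold of 0.05. The other 6 did not pass. Over all genes 2.26% were called higher and 1.39% were called lower. The median log2 fold change, caNrf2 minus control, was 0.29 over the 10 genes and -0.00 over all genes. Non-overlapping groups were seen in 7 of the 10 genes and in 25.7% of all genes. By probe set, with adjustment over 45037 of them, 4 of 19 were called higher and 2 lower, where 1.04% and 0.633% of all probe sets were. The 10 genes were chosen with earlier results of these data known, so these counts and medians cannot serve as a test of the family. The array read Nfe2l2, the gene of Nrf2, at 1136, 1222 and 1242 in caNrf2 skin and at 825, 726 and 774 in control skin. The difference was 0.63 ± 0.07 on the log2 scale (SE; adjusted p = 0.000739 in limma), and whether the probe set detects the transgene was not determined.

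**Figure D1:**
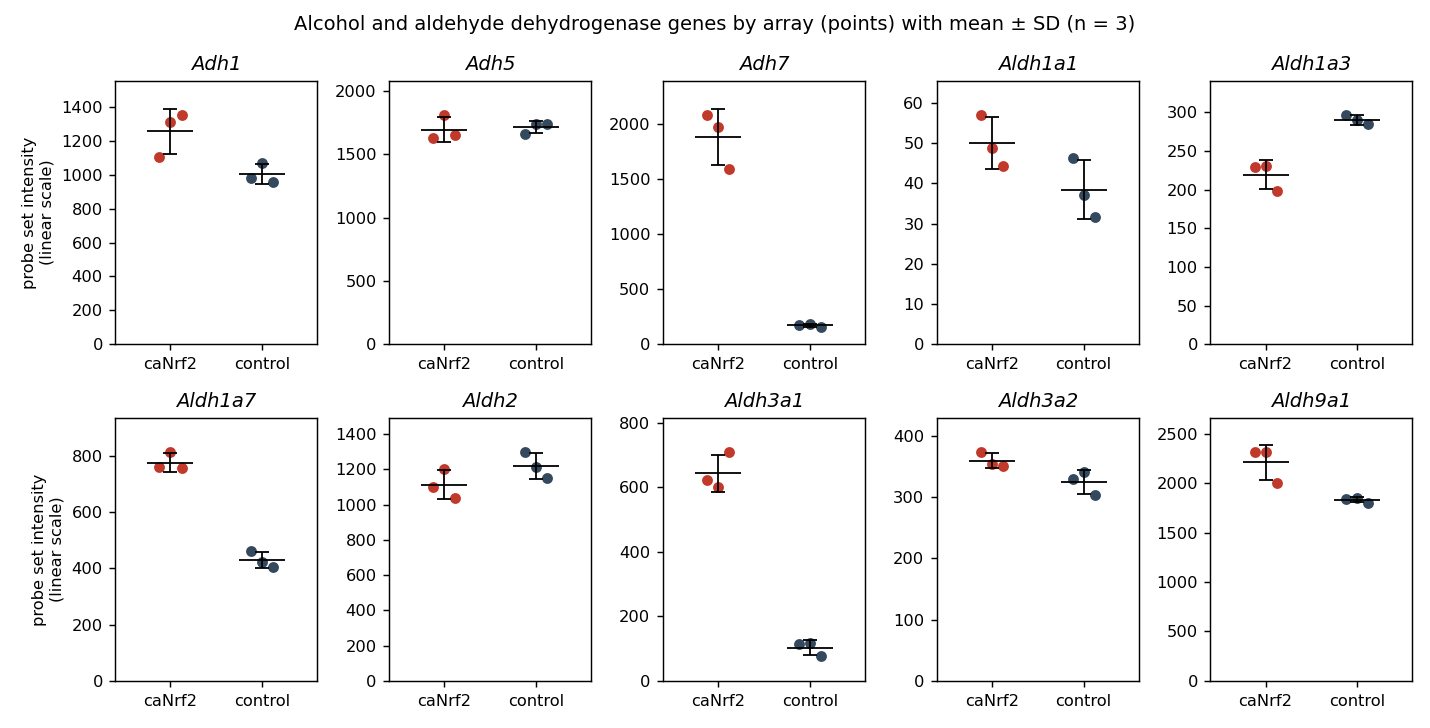
Probe set intensity on a linear scale for the 10 genes, 1 point per array, with caNrf2 arrays left of control arrays and bars at the mean ± SD (n = 3). Adh7 and Aldh3a1 stand far above their controls, Aldh1a7 lies above and Aldh1a3 below, and Adh5, Aldh1a1 and Aldh2 overlap between the groups.

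Among the alcohol dehydrogenases, Adh7 changed most. It encodes the class IV enzyme of stratified epithelia, which oxidises retinol and longer alcohols. Its brighter probe set read 2076, 1969 and 1588 in caNrf2 skin and 177, 182 and 152 in control skin (linear intensity). Every caNrf2 array lay far above every control array, with means of 1878 ± 256 and 170 ± 15.6 (SD, n = 3), an 11-fold difference. The log2 fold change of 3.46 ± 0.11 (SE; adjusted p = 8.15e-08 in limma) was the rise of rank 5 among all genes. Without any single array and in the other settings tried it lay between 3.34 and 4.09. The dimmer Adh7 probe set read 1340, 1320 and 2004 in caNrf2 skin and 56.9, 61.7 and 54.4 in control skin. That gave a larger difference, 4.73 ± 0.14 on the log2 scale, or 26.5-fold, so the size of the rise depends on the probe set.

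The 2 Adh7 probe sets also ordered the caNrf2 arrays differently. Replicate 3 was the lowest caNrf2 array in the brighter one and the highest in the dimmer one. The dimmer over the brighter was 0.645, 0.670 and 1.26 in caNrf2 skin and 0.322, 0.340 and 0.357 in control skin.

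Adh1, the class I enzyme that oxidises ethanol and retinol in liver and other tissues, read 1104, 1315 and 1352 in caNrf2 skin and 982, 1073 and 960 in control skin. The groups did not overlap, but the caNrf2 arrays were spread, and the log2 fold change of 0.32 ± 0.09 did not pass (limma, adjusted p = 0.0808). It passed with an intensity trend and robust variances together (adjusted p = 0.0184) and without caNrf2 replicate 1 (adjusted p = 0.0278). Adh5, the class III enzyme that acts on glutathione-bound formaldehyde and is expressed in most cells, read 1630, 1809 and 1651 in caNrf2 skin and 1659, 1740 and 1742 in control skin. These groups overlapped fully, and the 95% interval of the log2 fold change ran from -0.16 to 0.13. A dim second Adh5 probe set averaged 25.3 ± 2.01 in caNrf2 and 29.0 ± 1.92 in control skin, and did not pass.

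The Adh genes lie next to each other on chromosome 3, in the order Adh7, Adh1, Adh6a, Adh6b, Adh4 and Adh5, by a RefSeq gene table of GRCm38.p6. Within this row Adh7 was the single call. Adh6a gave 0.26 ± 0.33, Adh6b 0.09 ± 0.09 and Adh4 0.35 ± 0.09 on the log2 scale, with adjusted p of 0.689, 0.597 and 0.0773 in limma. Adh4 was dim, at 27.0 ± 1.74 in caNrf2 and 21.2 ± 2.60 in control skin. The log2 ratio of Adh7 over Adh1 was 0.58 ± 0.34 in caNrf2 skin and -2.56 ± 0.09 in control skin, and that of Adh7 over Adh5 was 0.14 ± 0.20 and -3.34 ± 0.16 (SD, n = 3). In each of 5 such ratios between related genes the exact two-sided permutation p was 0.1, also after adjustment over the 5, which is the smallest that 3 against 3 arrays allow. On the other side of the cluster the nearest genes Metap1, Eif4e and Tspan5 gave values between -0.02 and 0.03.

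**Figure D2:**
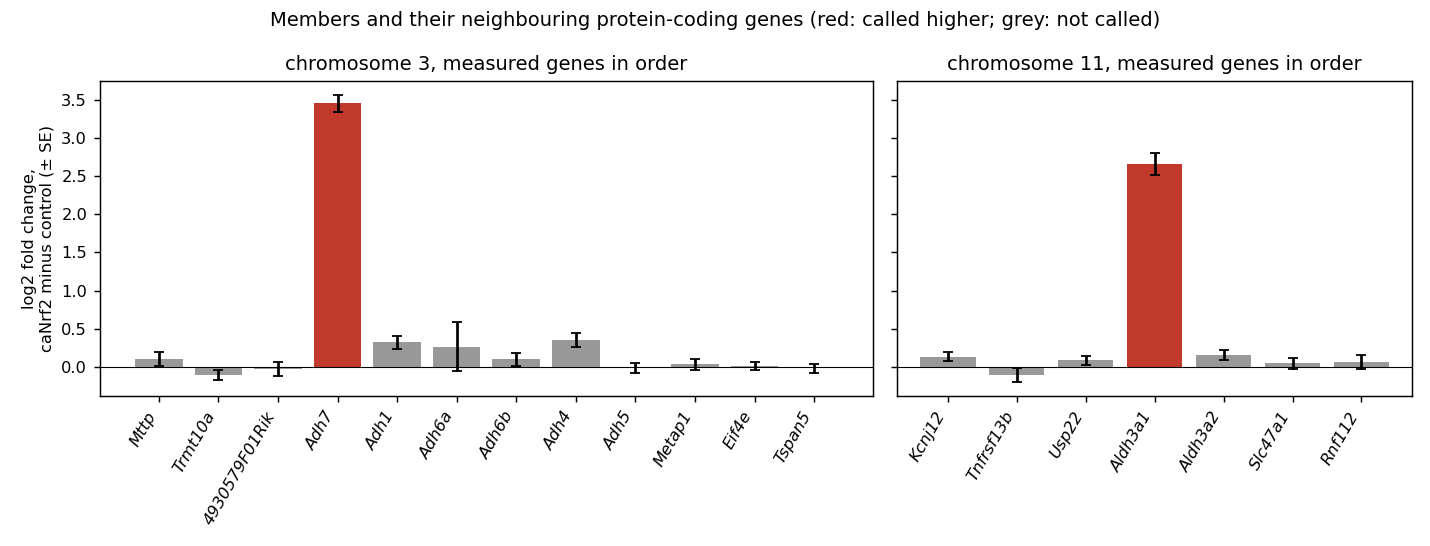
Log2 fold change, caNrf2 minus control, with SE, for measured protein-coding genes in their order along chromosome 3 (from Mttp to Tspan5) and chromosome 11 (from Kcnj12 to Rnf112). Adh7 at 3.46 and Aldh3a1 at 2.66 stand alone, and no flanking gene was called.

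Of the aldehyde dehydrogenases, Aldh3a1 changed most. It oxidises medium-chain and aromatic aldehydes, including products of lipid peroxidation, and is best known as an abundant protein of the cornea. Its single probe set read 621, 599 and 709 in caNrf2 skin and 114, 118 and 77.9 in control skin. The lowest caNrf2 array was far above the highest control array, with means of 643 ± 58.0 and 103 ± 22.0 (SD, n = 3). The 6.32-fold difference, 2.66 ± 0.14 on the log2 scale (SE; limma, adjusted p = 4.61e-06), was the rise of rank 10 among all genes and lay between 2.47 and 2.77 in the other settings.

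Aldh3a2, its neighbour on chromosome 11, encodes the fatty aldehyde dehydrogenase whose loss causes the ichthyosis of Sjögren-Larsson syndrome. It read 373, 353 and 351 in caNrf2 skin and 329, 341 and 303 in control skin. The groups did not overlap but lay close, and the log2 fold change of 0.15 ± 0.07 did not pass (limma, adjusted p = 0.246; 95% interval from -0.000262 to 0.29). The log2 ratio of Aldh3a1 over Aldh3a2 was 0.84 ± 0.15 in caNrf2 skin and -1.67 ± 0.25 in control skin (SD, n = 3). The measured genes around this pair, Kcnj12, Tnfrsf13b, Usp22, Slc47a1 and Rnf112, gave log2 fold changes from -0.11 to 0.13, and none was called.

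The Aldh1a enzymes differed in direction. Aldh1a7, a rodent homologue of Aldh1a1 that oxidises acetaldehyde and other small aldehydes, read 758, 813 and 755 in caNrf2 skin and 462, 423 and 404 in control skin. The caNrf2 arrays were tight and all above the controls, with means of 775 ± 32.4 and 430 ± 29.6 (SD, n = 3) and a 1.80-fold difference. Its log2 fold change was 0.85 ± 0.07 (SE; limma, adjusted p = 9e-05), between 0.81 and 0.91 in the other settings.

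Aldh1a1, which oxidises retinal to retinoic acid, lies beside Aldh1a7 on chromosome 19 and is near-identical to it in the stretch shown above. It was dim, at 56.9, 48.8 and 44.2 in caNrf2 skin and 46.3, 37.2 and 31.7 in control skin. The groups overlapped, and the log2 fold change of 0.39 ± 0.13 did not pass (limma, adjusted p = 0.149), with a 95% interval from 0.09 to 0.69. The log2 ratio of Aldh1a7 over Aldh1a1 was 3.96 ± 0.20 in caNrf2 and 3.50 ± 0.18 in control skin (SD, n = 3). The Aldh1a1 values lay within the range of the Y-linked probe sets, whose highest group mean was 61.6 in these female mice. Of 13 such probe sets, however, 11 averaged under 20 in both groups, below all Aldh1a1 values. The part of background in the ratio of Aldh1a7 over Aldh1a1 was not tested. Whether either probe set also detects the RNA of the other gene was not tested. The nearest other genes, Anxa1 and Tmc1, gave -0.04 and 0.13 and were not called.

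Aldh1a3, the retinal dehydrogenase of epithelia and hair follicles, was the member that fell. Its brightest probe set read 229, 230 and 198 in caNrf2 skin and 296, 290 and 284 in control skin. All caNrf2 arrays lay below all controls, with means of 219 ± 18.6 and 290 ± 5.84 (SD, n = 3). The log2 fold change was -0.41 ± 0.07 (SE; limma, adjusted p = 0.0148), the fall of rank 122 among all genes, and lay between -0.45 and -0.34 in the other settings. The call was lost without control replicate 1 (adjusted p = 0.0641). The other Aldh1a3 probe sets pointed the same way. In the second, 96.7, 94.5 and 89.3 in caNrf2 skin stood against 129, 118 and 121 in control skin (-0.39 ± 0.07; limma over all probe sets, adjusted p = 0.023). The remaining probe set read 136, 119 and 136 in caNrf2 skin and 184, 173 and 128 in control skin, where control replicate 3 lay within the caNrf2 range, and did not pass (-0.30 ± 0.13; adjusted p = 0.272). By probe set, the count of members called lower was 1 without control replicate 2 and 0 without any other single array.

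Because whole skin was measured, fewer cells of a type and less RNA per cell cannot be told apart. Beside the Aldh1a3 fall, 3 of 8 melanocyte markers were called lower by limma and 7 were lower at an unadjusted p under 0.05. Over all genes 1.39% were called lower and 9.55% were lower at that unadjusted p. The melanocyte markers had a median log2 fold change of -0.22 and sums of 10311 to 11329 in caNrf2 and 12103 to 12811 in control skin. Of 8 hair shaft markers 0 were called by limma and 4 were lower at an unadjusted p under 0.05, with a median log2 fold change of -0.22 and sums of 21102 to 22658 in caNrf2 and 22258 to 27062 in control skin. The part of these cells in the Aldh1a3 value was not tested.

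Aldh2 and Aldh9a1 were not called. Aldh2, the mitochondrial enzyme that clears acetaldehyde, read 1102, 1199 and 1035 in caNrf2 skin and 1298, 1211 and 1152 in control skin. The groups overlapped, and the log2 fold change of -0.13 ± 0.07 did not pass (limma, adjusted p = 0.338; 95% interval from -0.30 to 0.03). The other 4 Aldh2 probe sets gave log2 fold changes from -0.26 to -0.02, and none passed. Aldh9a1, which acts in carnitine synthesis and on aldehydes of polyamine breakdown, read 2314, 2313 and 2004 in caNrf2 skin and 1843, 1847 and 1800 in control skin. Here the groups did not overlap, with 0.27 ± 0.07 and 0.19 ± 0.06 on the log2 scale for its 2 probe sets. The brighter did not pass (limma, adjusted p = 0.0719), but did with an intensity trend and robust variances together (0.0145), with log2(value + 16) (0.0426) and without caNrf2 replicate 3 (0.0407).

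**Figure D3:**
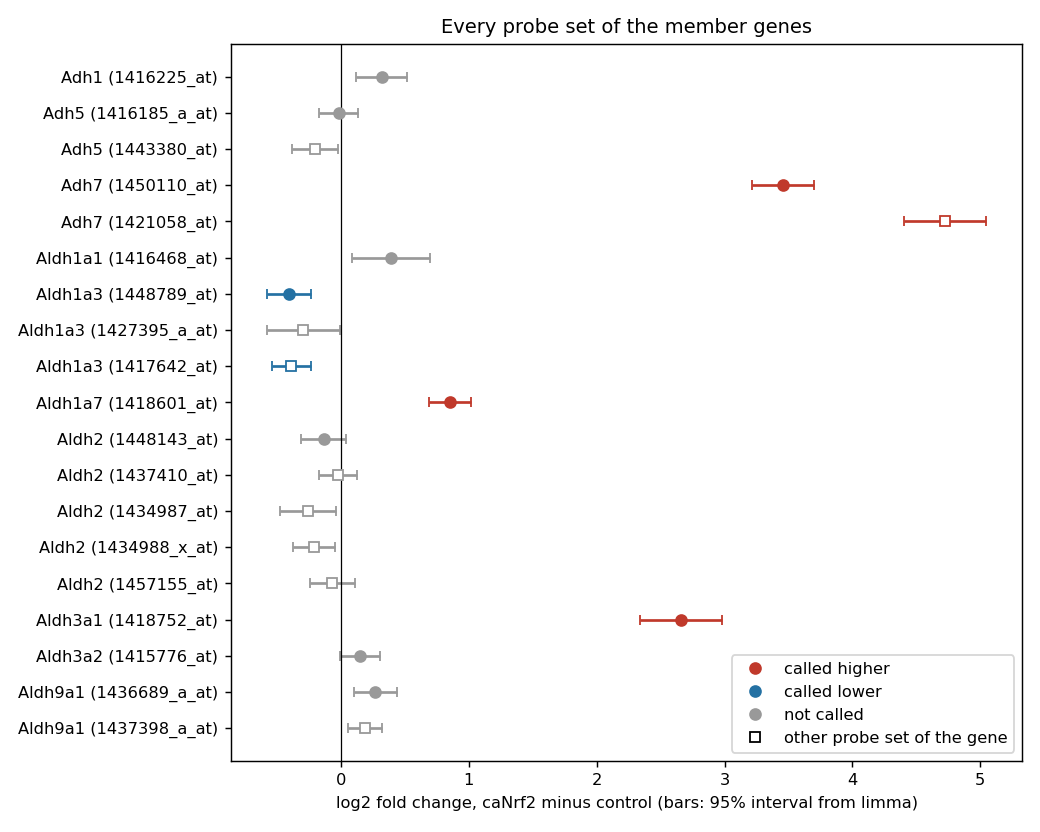
Log2 fold change, caNrf2 minus control, with the 95% interval from limma, for all 19 probe sets of the 10 genes. The calls are both Adh7 probe sets (3.46 and 4.73), Aldh3a1 (2.66) and Aldh1a7 (0.85) as higher and 2 of the Aldh1a3 probe sets (-0.41 and -0.39) as lower.

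Of the remaining genes of both families most were not called. Among 17 on the array there were 2 rises, 1 fall and 14 genes without a call. By comparison, 2.26% of all genes were called higher and 1.39% lower. The median log2 fold change of the 17 was 0.06. The rises were Aldh5a1, the succinic semialdehyde dehydrogenase of GABA breakdown, at 0.29 ± 0.06, and Aldh1a2, a retinal dehydrogenase, at 0.38 ± 0.08 (SE; limma, adjusted p = 0.0427 and 0.0297). Aldh5a1 read 212, 218 and 195 in caNrf2 skin and 170, 176 and 167 in control skin. Aldh1a2 was at 21.4, 25.6 and 23.0 in caNrf2 skin and 18.9, 17.9 and 17.1 in control skin, close to background. As a measure of background in these females, Y-linked genes have 13 probe sets, of which 11 averaged under 20 in both groups, with 61.6 as the highest mean. The fall was that of Aldh1b1, a mitochondrial acetaldehyde dehydrogenase close to Aldh2, which read 45.2, 37.0 and 30.8 in caNrf2 skin and 60.3, 56.7 and 50.8 in control skin (-0.59 ± 0.13; limma, adjusted p = 0.0357). These groups did not overlap, but the values lay within the range of the Y-linked probe sets. The 2 rises became 0 without caNrf2 replicate 2 or any 1 control array, and 1 without caNrf2 replicate 1 or 3. The count of falls was 1 without caNrf2 replicate 1 and 0 without any other single array.

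Retinoid genes that supply or follow the Adh and Aldh1a steps showed few calls. Among 23 on the array there was 1 rise, 0 falls and 22 genes without a call, with a median of -0.04. The shares called over all genes were 2.26% higher and 1.39% lower. The rise is Aldh1a2, already described. At an unadjusted p under 0.05, limma gave 3 of the 23 as higher and 3 as lower, where 10.8% of all genes were higher and 9.55% lower. Rdh9, a retinol dehydrogenase, read 835, 775 and 798 in caNrf2 skin and 966, 934 and 937 in control skin, and did not pass (-0.24 ± 0.06; limma, adjusted p = 0.0585). Cyp26a1, which degrades retinoic acid and is switched on by it, was at 37.3 ± 3.12 in caNrf2 and 30.3 ± 1.99 in control skin and did not pass (limma, adjusted p = 0.0704). These Cyp26a1 values lay within the range of the Y-linked probe sets, of which 11 of 13 averaged under 20 in both groups. Rdh12, a retinal reductase, was at 775 ± 22.8 and 666 ± 25.4 (adjusted p = 0.0834). Under 6 of the alternatives the count of falls was 1 or 2 in place of 0.

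A list of other enzymes that remove lipid-derived aldehydes and ketones held more calls. Among 9 on the array there were 5 rises, 0 falls and 4 genes without a call, with a median of 1.54. Over all genes 2.26% were called higher and 1.39% lower. This list too was chosen with earlier results of these data known, so its count cannot serve as a test of such enzymes. Gsta4, which joins 4-hydroxynonenal to glutathione, was at 1263 ± 84.3 in caNrf2 and 152 ± 21.2 in control skin, and the carbonyl reductase Cbr3 at 4384 ± 267 and 782 ± 37.5 (SD, n = 3). Cbr1, the related carbonyl reductase, was at 1541 ± 45.7 and 524 ± 17.8. Ptgr1, which reduces reactive alkenals, was at 6010 ± 247 and 2071 ± 26.3. Akr1b8, an aldo-keto reductase named after its values were seen, was also called, and the 4 genes without a call lay between -0.06 and 0.15 on the log2 scale. The 5 rises kept that number in every alternative run.

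Around Aldh3a2, genes of fatty alcohol and aldehyde turnover had a median of -0.15, with 0 of 7 higher and 1 lower. For this list and the carnitine genes below, the shares called over all genes were 2.26% higher and 1.39% lower. At an unadjusted p under 0.05 limma gave 0 of the 7 as higher and 4 as lower, where 10.8% of all genes were higher and 9.55% lower. The fall was Far2, which makes fatty alcohols from acyl-CoA, at 388 ± 13.8 in caNrf2 and 509 ± 51.8 in control skin (-0.39 ± 0.08; limma, adjusted p = 0.0274). Leaving out any 1 array other than control replicate 3 ended the Far2 call. Phyh, Far1 and Agps, of phytanic acid oxidation, fatty alcohol and ether lipid synthesis, gave -0.15, -0.22 and -0.17 and did not pass. Around Aldh9a1, 1 of 8 genes of carnitine synthesis and use rose, 0 fell and 7 did not pass, with a median of -0.02 and, at an unadjusted p under 0.05 in limma, 1 gene higher and 1 lower. The rise was that of the mitochondrial carnitine palmitoyltransferase Cpt2, at 899 ± 27.3 in caNrf2 and 718 ± 14.4 in control skin (0.32 ± 0.06; limma, adjusted p = 0.0144). Leaving out caNrf2 replicate 2, caNrf2 replicate 3 or control replicate 1 ended this call. Tmlhe, which opens carnitine synthesis, was at 206 ± 6.43 and 227 ± 4.69, the transporter Slc25a20 at 953 ± 44.9 and 870 ± 50.7, and the acetyltransferase Crat at 538 ± 20.7 and 579 ± 12.8. These did not pass.

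**Figure D4:**
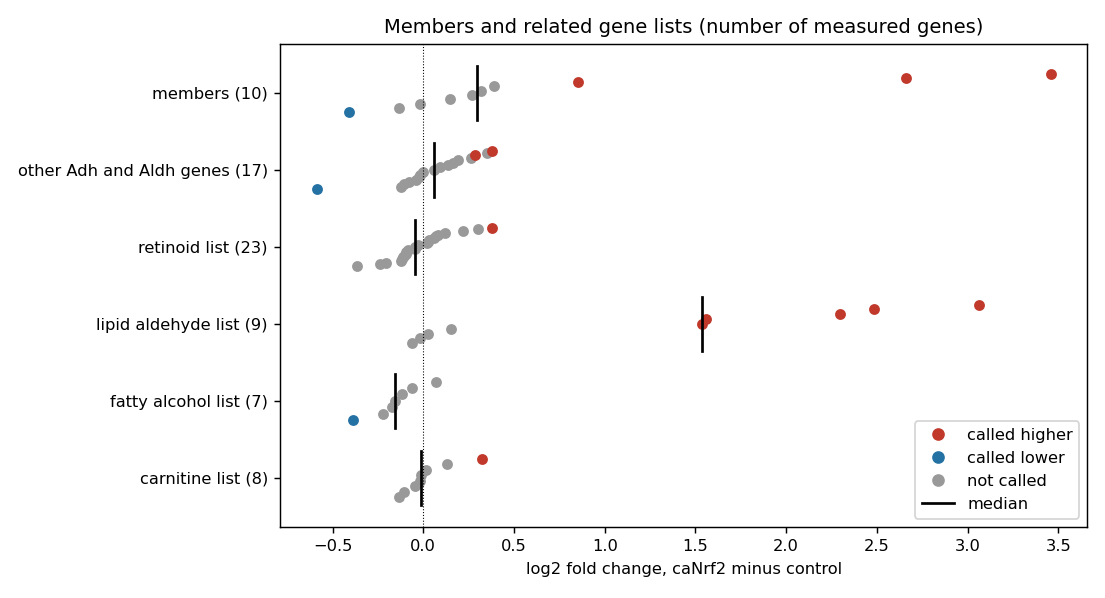
Log2 fold change, caNrf2 minus control, of each measured gene of the 10 members and 5 related lists, coloured by call, with a line at the list median. The lipid aldehyde list has 5 genes above 1.5, while the other related lists stay between -0.59 and 0.38.

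Across the 6 arrays the genes most like Adh7 in log2 intensity were Rab15, Gabarapl1, Trim14, Pgm1 and 2310050C09Rik, with Pearson r from 0.997 to 0.999. All were called higher, with smaller log2 fold changes of 0.25 to 0.73. The arrays share 2 groups, so any gene that separates them scores high on this measure.

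Marker genes of the main skin cell types were read on every array, beside shares of 2.26% called higher and 1.39% called lower over all genes. Of 7 basal keratinocyte markers 1 was lower (Krt15), of 8 markers of differentiated keratinocytes 2 were lower (Krt77 and Ivl), and of 7 adipocyte markers 1 was lower (Lep). Of 6 sebocyte markers 1 was higher (Mgst1) and 1 lower (Elovl3), and of 7 T cell and Langerhans markers 1 was higher (Cd207). None of the 7 markers each of fibroblasts, endothelium, macrophages, mast cells and skeletal muscle was called by limma. At an unadjusted p under 0.05 in limma there were 2 of these 35, where 10.8% of all genes were higher and 9.55% lower. The part of these cells in the member values was not tested. Pearson correlations of log2 intensity were 0.9976 to 0.998 within caNrf2 arrays, 0.9973 to 0.9977 within control arrays and 0.9949 to 0.9962 between groups. The log2 ratio of 3′ to 5′ Actb probe sets, a sign of RNA quality, was 0.525 ± 0.011 in caNrf2 and 0.493 ± 0.012 in control skin (SD, n = 3), and its part in the results was not tested.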

How the data were processed

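Total RNA from whole skin of 3 caNrf2 and 3 control mice was labelled for Affymetrix arrays, from 2 ug each per the labels' protocols. The authors deposited 1 intensity per probe set and array, which is linear and not log2; per the submitters' processing notes RMA was used, and its version was not given. Quantile normalization in RMA hides a shift of most genes in 1 direction. No read depth applies, and the number of arrays limits the precision.

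Of 45101 probe sets, 34945 had 1 gene symbol, 932 several and 9160 none, and 64 array controls were left out. Symbols were updated through Entrez identifiers with a RefSeq table of GRCm38.p6 (34741 matched). The probe set with the highest mean stood for a gene. Values were log2-transformed and fitted across all genes, and apart from that across all probe sets, with limma 3.58.1 in R 4.3.3 (lmFit and eBayes, group as the only term, 4 residual and 5.52 prior degrees of freedom). P-values are two-sided, with Benjamini-Hochberg adjustment. The code was tested on simulated data. Paralog ratios were tested with scipy 1.17.1.

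The members and gene lists were chosen with earlier results of these data known, and neighbouring genes were added later. A measured gene was found for 166 of 183 list entries; the rest were not analysed here. Named are all members, up to 4 genes of smallest p in each related list, called markers and the 5 genes most correlated with the most changed member; Akr1b8 and neighbouring genes were named after their values were seen. Alternatives were other probe set summaries, a pseudocount, a filter on dim values, other variance models, array weights, further normalization, a replicate block and leaving out each array.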

Additional observations from a re-analysis of the deposited data

How the results depend on the processing

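Over 130 values of the 10 members under other settings, 120 kept direction and call, 7 changed the call and 3 changed sign. All 3 were Adh5, at 0.00245 after further quantile normalization, 0.0124 without caNrf2 replicate 1 and 0.00307 without caNrf2 replicate 3, and its values with single arrays left out ran from -0.0629 to 0.0124. The Adh7, Aldh3a1 and Aldh1a7 calls held in all 13 alternatives. Member genes called higher numbered 5 with an intensity trend and robust variances, and member genes called lower ran from 0 to 1 with single arrays left out. Member probe sets called lower ran from 0 to 1 with arrays left out. All genes called higher ran from 226 to 316 and those called lower from 72 to 196 with arrays left out, and 501 were lower with an intensity trend and robust variances. Other Adh and Aldh genes called higher numbered 1 with log2(value + 16), the filter at a mean of 32, further quantile normalization or the replicate block, and 0 to 1 with arrays left out, and those called lower 0 to 1. Retinoid genes called higher numbered 0 with that filter, further normalization or the replicate block, 2 with that trend and robust variances or with array weights, and 0 to 1 with arrays left out. Those called lower numbered 1 with the mean of all probe sets, log2(value + 16) or the filter, 2 with that trend and robust variances or with array weights, and 0 to 1 with arrays left out. Fatty alcohol genes called lower numbered 0 with the replicate block and 0 to 1 with arrays left out. Carnitine genes called higher numbered 0 with the mean of all probe sets and 0 to 1 with arrays left out. Causes were not tested, except that the filter tests fewer genes and leaving out an array uses fewer samples.

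Same-numbered arrays deviated together at correlations of 0.0329, 0.135 and 0.0936, and nothing in the labels pairs them, so the numbers were not taken as pairs. With the replicate block 4 member genes were higher, Aldh1a1 being added (adjusted p = 0.0265 in limma), and 353 of all genes were higher and 237 lower. Not every array correlated best with its own number.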

Other observations

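Adh6a, an alcohol dehydrogenase gene beside Adh1, was high on a single array. It read 76.2, 85.4 and 220.5 in caNrf2 skin and 86.3, 107 and 90.1 in control skin, so that caNrf2 replicate 3 stood apart from the other 5 arrays. Among 18193 genes, 1 was at least 2-fold above all other arrays on any 1 array, and that gene was Adh6a. This count was chosen after the Adh6a values were seen. The same array had the highest values of Adh1 (1352), Adh6b (547), Adh4 (28.3), the dimmer Adh7 probe set (2004) and Aldh3a1 (709). Its Adh5 value was not the highest, and its value for the brighter Adh7 probe set, 1588, was the lowest in caNrf2 skin. By the brightest probe set, caNrf2 replicate 3 was also the lowest caNrf2 array for Aldh1a1 (44.2), Aldh1a3 (198) and Aldh1a7 (755). The same held for Aldh2 (1035), Aldh3a2 (351) and Aldh9a1 (2004).

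Near the members, 37 other measured genes were among the 3 protein-coding genes on each side, a choice made after the values were seen. Of these 1 was called higher, 0 lower and 36 did not pass, with a median log2 fold change of 0.04. Over all genes 2.26% were called higher and 1.39% lower. The call was Cers3, a ceramide synthase of the epidermal barrier that lies near Aldh1a3, at 0.27 (limma, adjusted p = 0.048).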
